A study of Mus musculus with 6 samples.

Results

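Genes of DNA damage sensing and repair were followed in hematopoietic stem cells that lacked or carried the lymphotoxin β receptor gene *Ltbr*. The set held 38 genes, chosen by name from textbook roles in 7 repair functions by a rule that used no measured value, though with earlier results of these data known, of 26216 gene names in the deposited files. All 38 were among the 13108 names whose mean signal lay in the upper 50% of names, which were the names tested.

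RNA-seq had been done on long-term and short-term hematopoietic stem cells (LT/ST-HSCs) of mouse bone marrow, sorted 6 weeks after transplantation of mixed chimeras. One group was Ltbr-/- (CD45.2) with 3 samples from donors aged 10 to 13 weeks, the other Ly5.1, which kept *Ltbr* and carried CD45.1, with 3 samples from donors aged 7 to 13 weeks. Cells of both genotypes had been mixed in equal parts and had grown in the same lethally irradiated Ly5.1/Ly5.2 recipients, the samples were pools from 6 chimeras, and the sort gate (lineage negative, Annexin V negative, Sca-1+, c-Kit+, CD150+, CD48-) was the same for both. All cells of both groups had thus been through transplantation into an irradiated host, dying cells had been gated out, and no unirradiated or untransplanted group was among the samples.

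DNA breaks are sensed by the MRN complex (MRE11, RAD50, NBN), which activates the kinase ATM, while ATR answers to single-stranded DNA at stalled forks, and both signal through CHK1 and CHK2. Breaks are then joined directly by non-homologous end joining or copied from the sister chromatid by homologous recombination. The Fanconi anaemia pathway unhooks crosslinks between the strands, and excision and mismatch repair remove damaged or wrongly paired bases. Quiescent HSCs rely largely on end joining, and the inherited loss of Fanconi genes in humans leads to bone marrow failure.

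The comparison asked whether LT/ST-HSCs without *Ltbr* carried different amounts of repair transcripts from Ly5.1 cells of the same hosts. The answer was small differences and few calls. *Atm*, *Parp1* and *Pms2* were lower in Ltbr-/- cells, by 14.2 to 18.7%, and no member was higher at an adjusted p under 0.05. The remaining 35 members did not pass the test. Values are the deposited signal, on a linear scale that the authors had already adjusted between samples. A difference is the log2 fold change of Ltbr-/- against Ly5.1 from limma, with the Benjamini-Hochberg adjustment over all 13108 names. In bulk samples, fewer cells that express a gene and less RNA per cell cannot be told apart.

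The share of members called, 7.89% (3 of 38), stood beside 14.8% of all tested names, and the 3 lower members beside 4.18% of names called lower and 10.6% called higher. The count was 0 without a variance trend, without moderation (4.37% of names called) or without Ltbr-/- replicate 2 or 3, 1 without a filter on low values, with length and GC content of transcripts corrected by loess or without Ly5.1 replicate 1, and 6 without Ly5.1 replicate 3. None of the 38 passed with a fold of at least 1.5, against 2.78% of tested names (2.72% higher and 0.061% lower). An unadjusted limma p under 0.05 was reached by 8 members (21.1%), 2 of them with a higher and 6 with a lower mean, against 27.1% of names. In 9 members (23.7%) the 3 Ltbr-/- samples did not overlap the 3 Ly5.1 samples, against 30.4% of names, with 3 of the 9 higher (17% of names) and 6 lower (13.5% of names). The median difference was −0.04 over the members and −0.01 over all tested names, and 24 members lay below 0 and 14 above, with 46.4% of all names above 0.

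Under the moderated limma fit, the data also bounded the differences that were not called. The 95% intervals of all 38 members, from −0.49 at the lowest to 0.39 at the highest, lay inside a fold of 1.5 in either direction, which is 0.585 on the log2 scale. Of the members, 22 had a difference smaller than 0.1 in either direction. Standard errors ran from 0.06 to 0.11 with a median of 0.09, equal to the median of 0.09 over all names. These intervals hold on the deposited scale, on which differences of weakly measured genes had been drawn towards 0. They also rest on limma's moderated variance, which borrows from the spread of other genes. Intervals from each gene's own samples were not taken and would be wider where that spread is large. One such gene is *Atr*, with log2 SDs of 0.16 in Ltbr-/- and 0.29 in Ly5.1 samples. A fold of 1.5 is therefore not excluded for every member.

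**Figure D1:**
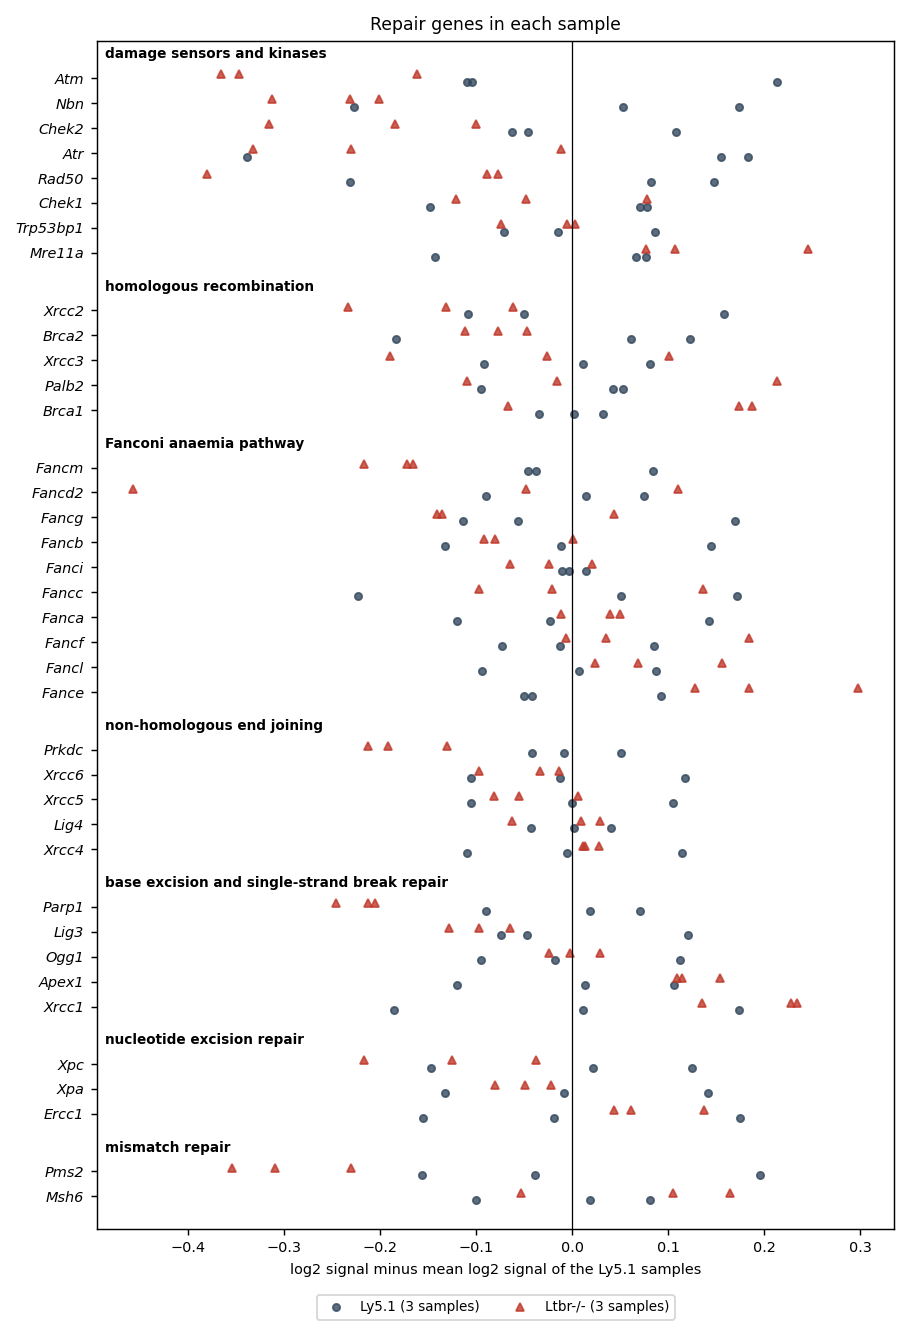
Signal of the 38 repair genes in each sample, as log2 signal minus the gene's mean log2 signal in the 3 Ly5.1 samples (x axis, log2 units). Rows are genes grouped by repair function, circles Ly5.1 samples and triangles Ltbr-/- samples. All 3 triangles lie left of all 3 circles for Atm, Parp1 and Pms2, and in most other rows the symbols mix.

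*Ltbr* itself was read first, as the check of the labels. Its signal was 24.2, 26.4 and 23.1 in the Ltbr-/- samples and 564, 549 and 522 in the Ly5.1 samples, a log2 fold change of −4.47 ± 0.08 (SE, limma adjusted p = 2.15e-32), so the labels held in all 6 samples. The libraries' median log2 signals over tested names lay between 8.46 and 8.47, and the labels name no batch. The upper range was less even. The 75th percentiles were 9.81 to 9.82 in Ltbr-/- and 9.78 to 9.80 in Ly5.1 samples. The summed signal of tested names was 12947650 to 13254602 against 11662579 to 11956552. Of 12 HSC markers, limma called 1 higher (*Gata2*) and 2 lower (*Ly6a*, *Meis1*), and their summed signal was 18033 to 18721 in Ltbr-/- and 19227 to 19860 in Ly5.1 samples. Markers of other cells were present in both groups. Of 12 granulocyte and monocyte markers 10 were lower in Ltbr-/- (sum 48795 to 48993 against 63716 to 68599), of 7 mast cell and basophil markers 2 were higher and 1 lower (7526 to 8097 against 4134 to 4721), and of 5 tested of 7 B and plasma cell markers 1 was higher and 2 lower (1453 to 1582 against 2313 to 2475). Of 7 erythroid markers 1 was higher (3768 to 4108 against 2858 to 3097), of 5 tested of 6 megakaryocyte markers 1 was higher and 1 lower (13849 to 14640 against 11732 to 13038), and of 2 tested of 6 T cell markers limma called 0, also at an unadjusted p under 0.05 (70.2 to 71.5 against 70.1 to 73.3). The shares of tested markers called were 25% for HSC, 83.3% for granulocyte and monocyte, 42.9% for mast cell and basophil and 60% for B and plasma cell markers. They were 14.3% for erythroid, 40% for megakaryocyte and 0% for T cell markers, beside 14.8% of all tested names. Of the 12 HSC markers 10 lay below 0, and all 12 granulocyte and monocyte markers were lower without overlap. No marker stood at the lowest signal in all samples. The part of these markers in the values of the repair genes was not tested.

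The damage sensors and kinases lay mostly on one side. Of 8 genes, 7 lay below 0, with a median of −0.19, and 1 passed the test. The median was −0.10 after the loess correction, with 5 of the 8 below 0, and −0.11, −0.11 and −0.12 without Ltbr-/- replicate 3, Ly5.1 replicate 2 or Ly5.1 replicate 1. *Atm*, the kinase that MRN switches on at double-strand breaks (GRCm38.p6, chr9:53437122-53536828), had a signal of 1233, 1084 and 1069.9 in the 3 Ltbr-/- samples and of 1598, 1283 and 1278 in the 3 Ly5.1 samples. Every Ltbr-/- sample was below every Ly5.1 sample, although the highest Ltbr-/- and the lowest Ly5.1 samples were close. The means were 1129 ± 90.1 and 1386 ± 183 (SD, n = 3 each). *Atm* was thus lower by 18.3% in Ltbr-/- cells, a log2 fold change of −0.29 ± 0.09 (SE, limma adjusted p = 0.0299), and the exact two-sided permutation test gave its smallest possible value with 3 against 3 samples, p = 0.1. Without Ly5.1 replicate 1, the highest sample, the difference was −0.18 and the limma adjusted p 0.246, and without Ltbr-/- replicate 2 or 3 the adjusted p was 0.112 or 0.143.

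*Pms2*, which acts in mismatch repair (chr5:143909901-143972745), had a signal of 539, 495 and 510.5 in Ltbr-/- samples and of 724, 568 and 616 in Ly5.1 samples. The groups did not overlap. The means of 515 ± 22.6 and 636 ± 80.3 (SD, n = 3 each) differed by −0.30 ± 0.10 on the log2 scale (SE, limma adjusted p = 0.0317), a decrease of 18.7% (exact permutation p = 0.1). Again Ly5.1 replicate 1 stood highest, and without it the difference was −0.20 with a limma adjusted p of 0.228, while without Ltbr-/- replicate 2 or 3 the adjusted p was 0.112 or 0.0987. In a window count over the annotated transcripts, 4.20% of 76-base pieces of *Pms2* also occurred in another gene on the same strand (*Rsph10b* and *Gm42421*). A small part of its reads could thus belong to those genes. *Msh6*, which recognises single mismatches, did not pass the test, with a difference of 0.07 (adjusted p = 0.612) and overlapping samples (3185, 3703 and 3555 against 3347, 3497 and 3084).

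*Parp1*, the enzyme that marks single-strand breaks with poly(ADP-ribose) and so recruits XRCC1 (chr1:180568891-180600999), was likewise lower in Ltbr-/- cells. Its signal was 4689, 4801 and 4826 in Ltbr-/- samples and 5839.6, 5228 and 5633 in Ly5.1 samples. The Ltbr-/- samples were close together and all below the Ly5.1 samples. The means were 4772 ± 72.9 and 5567 ± 311 (SD, n = 3 each), a decrease of 14.2% and a log2 fold change of −0.22 ± 0.07 (SE, limma adjusted p = 0.0313, exact permutation p = 0.1). Quantile normalization widened the difference to −0.38, and leaving out any Ltbr-/- sample or Ly5.1 replicate 1 raised its adjusted p to between 0.0818 and 0.146. No piece of the *Atm* or *Parp1* transcripts was shared with another gene.

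A window around 1 transcription start of each of these 3 genes is shown since they are the members that passed the test. Each is the 300 bases of RefSeq (GRCm38.p6) from 250 before to 50 after that start, read along the gene's strand. The start used is the outer end of the gene span given above for *Parp1*, but lies inside that span for *Atm* and *Pms2*. Capitals mark 3 short motifs found on either strand, the ETS-type CCGGAAG, the CCAAT box and the GC box GGGCGG. In *Pms2* the ETS-type letters overlap 1 GC box by their first bases and adjoin another, so they form 1 run of capitals.
Atm (chr9:53536622-53536921, minus strand): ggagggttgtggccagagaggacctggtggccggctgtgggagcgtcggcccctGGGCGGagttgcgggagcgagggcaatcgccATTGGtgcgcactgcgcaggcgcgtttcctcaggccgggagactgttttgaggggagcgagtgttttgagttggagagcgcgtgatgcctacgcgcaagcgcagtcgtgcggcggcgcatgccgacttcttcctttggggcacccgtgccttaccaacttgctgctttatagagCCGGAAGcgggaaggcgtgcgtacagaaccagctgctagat
Parp1 (chr1:180568641-180568940, plus strand): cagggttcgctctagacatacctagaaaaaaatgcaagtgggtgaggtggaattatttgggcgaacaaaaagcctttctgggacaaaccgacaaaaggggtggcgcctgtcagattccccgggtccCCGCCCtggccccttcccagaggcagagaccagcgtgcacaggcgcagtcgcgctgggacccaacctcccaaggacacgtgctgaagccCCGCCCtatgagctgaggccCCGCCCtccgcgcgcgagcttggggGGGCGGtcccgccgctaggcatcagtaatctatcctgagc
Pms2 (chr5:143909751-143910050, plus strand): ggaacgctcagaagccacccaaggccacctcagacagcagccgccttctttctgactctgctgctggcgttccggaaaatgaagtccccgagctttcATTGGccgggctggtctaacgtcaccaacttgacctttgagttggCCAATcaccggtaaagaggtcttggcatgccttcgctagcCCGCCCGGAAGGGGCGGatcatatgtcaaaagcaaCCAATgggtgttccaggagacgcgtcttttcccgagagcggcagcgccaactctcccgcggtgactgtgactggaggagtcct
*Atm* and *Pms2* held all 3 motifs, and *Parp1* held GC boxes only. These 3 motifs were added after the values of the members had been seen. Over the members, for which 33 such windows of 32 genes were at hand, CCGGAAG occurred in 30.3% of windows against 8.86% of all 32851 RefSeq windows, CCAAT in 60.6% against 37.4%, and GGGCGG in 66.7% against 35.7%. The E2F-type letters of genes used in S phase (TTTCCCGC, TTTGGCGC, TTTGCCGC or TTTCGCGC, either strand) were found in 5 member windows (15.2%) against 2.26% of all windows, namely those of *Brca2*, *Chek2*, *Fancg*, *Msh6* and *Xrcc6*. The CHR-type letters of genes used in mitosis (TTTGAA) were in 0 member windows against 17.9% of all. For 4 of these genes the motif with 20 bases on each side is given along the gene's strand, with the E2F-type letters in capitals, so that the shared core can be seen. Positions count from the start that the window is built on. In these 4 genes that start and the motif lie inside the annotated gene. The gene's outer 5' end is at 43010567 for *Fancg*, 110839800 for *Chek2*, 150522297 for *Brca2* and 81987833 for *Xrcc6*. Negative positions thus do not place these motifs outside the gene.
Fancg (chr4:43010326-43010373, minus strand, first base of the motif at −52 from the start): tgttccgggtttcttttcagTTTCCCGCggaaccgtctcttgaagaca
Chek2 (chr5:110839811-110839858, plus strand, −152): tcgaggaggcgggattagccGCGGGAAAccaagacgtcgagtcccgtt
Brca2 (chr5:150522433-150522480, plus strand, −168): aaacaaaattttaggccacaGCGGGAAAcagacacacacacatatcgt
Xrcc6 (chr15:82016303-82016350, plus strand, −46): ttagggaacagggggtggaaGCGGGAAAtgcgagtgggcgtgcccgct
The same core, read on one strand or the other, recurs in all 4. In *Msh6* it begins at base 16 of the transcript. None of these 5 genes passed the test between genotypes, and their differences ran from −0.20 (*Chek2*) to 0.07 (*Msh6*). A match of letters is a description of the window and no evidence of binding.

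The other sensors and kinases did not pass the test. *Nbn*, which tethers ATM to the MRN complex, had the next largest difference, with a signal of 894, 828 and 876 in Ltbr-/- samples and of 878, 1159 and 1066 in Ly5.1 samples. One Ly5.1 sample lay among the Ltbr-/- samples and the other two lay above them. The log2 difference was −0.25 ± 0.10 (SE, limma adjusted p = 0.0756). Without that Ly5.1 sample, replicate 1, it was −0.36 with an adjusted p of 0.0104.

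*Chek2*, the kinase downstream of ATM, had a signal of 720.5, 679.9 and 621 in Ltbr-/- and of 748, 833 and 739.9 in Ly5.1 samples. These did not overlap, but the difference of −0.20 had a limma adjusted p of 0.151 (exact permutation p = 0.1). *Atr* and *Rad50* gave differences of −0.19 and −0.18 with adjusted p of 0.232 and 0.227. In both, Ly5.1 replicate 3 was the low sample of its group, at 1363 for *Atr* against 1957 and 1919.9 and at 1199 for *Rad50* against 1489 and 1559, and without it the differences were −0.36 and −0.30 with limma adjusted p of 0.00529 and 0.0310. *Chek1*, the kinase downstream of ATR, and *Trp53bp1*, whose product steers breaks towards end joining, each differed by −0.03 (adjusted p = 0.881 and 0.880). The 4 kinases *Atm*, *Atr*, *Chek1* and *Chek2* all lay below 0, with a median of −0.20, and 1 of them passed.

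*Mre11a*, the nuclease of the MRN complex, was the 1 sensor above 0. Its signal was 983, 1104 and 1004 in Ltbr-/- and 844, 976 and 983 in Ly5.1 samples, groups that did not overlap but nearly touched. The difference of 0.14 did not pass (limma adjusted p = 0.320). Since the MRN subunits act in 1 complex, their ratio within each sample was also taken. The log2 ratio of *Mre11a* to *Nbn* was 0.25 ± 0.15 in Ltbr-/- and −0.14 ± 0.10 in Ly5.1 samples (SD, n = 3 each), a difference of 0.39 without overlap (exact permutation p = 0.1). It was 1 of 10 ratios of partners chosen after the values had been seen, and adjusted over those 10 its p was 0.333. The 0.39 is the difference of *Mre11a* less that of *Nbn*, so it is no result apart from those of the single genes.

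**Figure D2:**
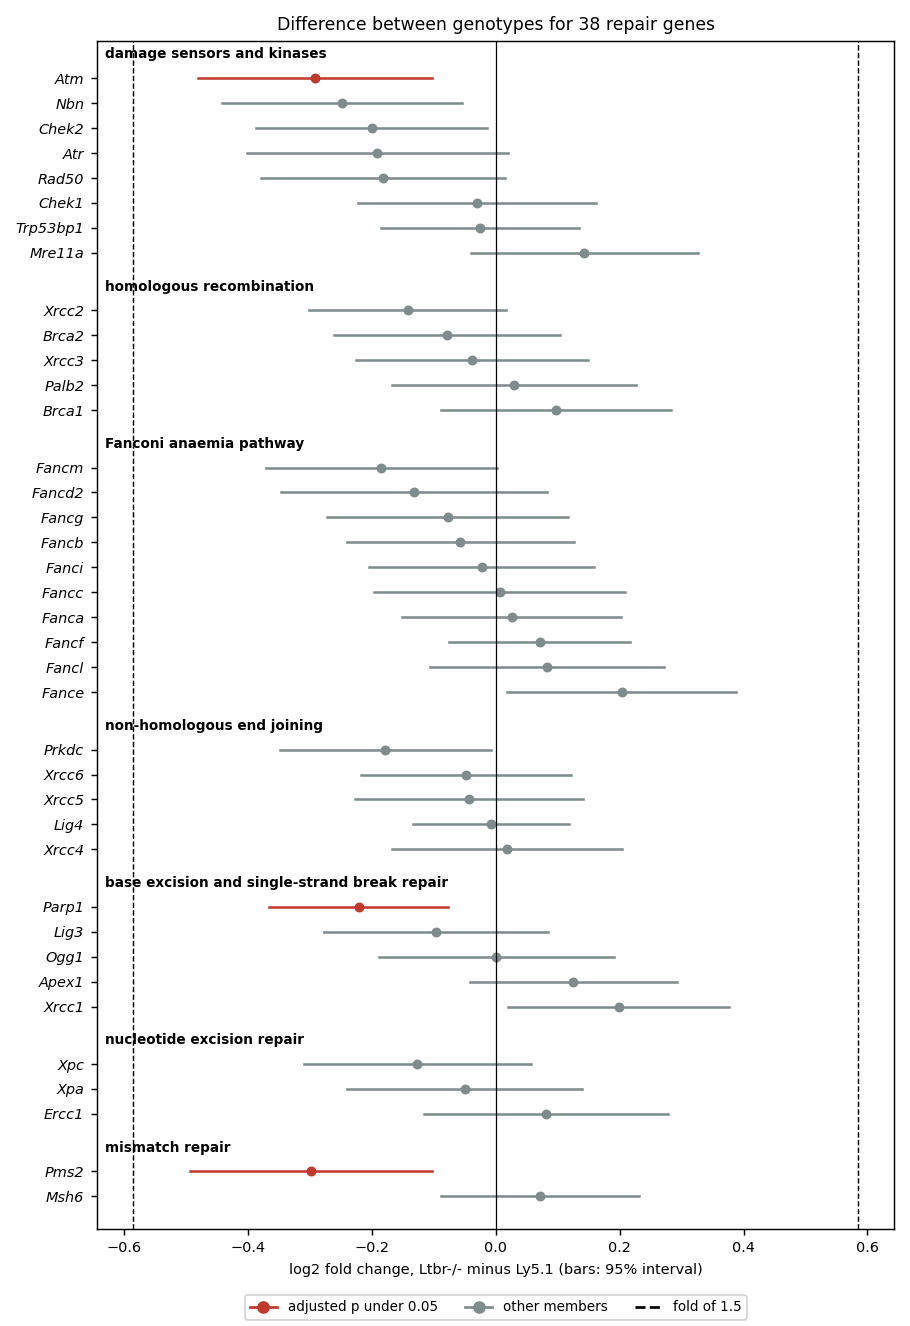
Log2 fold change of the 38 repair genes in Ltbr-/- against Ly5.1 samples (x axis), as a point with its 95% interval from limma, by repair function. Dashed lines mark a fold of 1.5, and red marks the 3 genes with an adjusted p under 0.05. No interval reaches a dashed line, and the kinases stand mostly left of 0.

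Homologous recombination genes differed little. Of the 5 genes, 2 lay above 0 and 3 below, with a median of −0.04, and limma called 0, also at an unadjusted p under 0.05. The largest difference was that of *Xrcc2*, which assists strand exchange, at −0.14 (limma adjusted p = 0.240). Its signal was 74.4, 83.8 and 79.9 in Ltbr-/- and 97.7, 84.5 and 81.2 in Ly5.1 samples. The groups overlapped, and 1 high Ly5.1 sample stood apart from the rest. *Brca1*, which promotes the trimming of break ends, differed by 0.10 (adjusted p = 0.536), with 766, 913 and 905 in Ltbr-/- around 783, 804 and 820.5 in Ly5.1 samples. *Brca2*, which acts after the ends are trimmed, differed by −0.08 (0.628), *Palb2*, which links BRCA1 to BRCA2, by 0.03 (0.887) and *Xrcc3*, which also assists strand exchange, by −0.04 (0.842).

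The 10 Fanconi anaemia genes split evenly around 0, 5 above and 5 below, with a median of −0.01. Limma called 0 of them at an adjusted p under 0.05 and 1 at an unadjusted p under 0.05. That 1 was *Fance*, which bridges the core complex to its substrate FANCD2, with a signal of 705, 793 and 733 in Ltbr-/- and of 688, 627 and 623 in Ly5.1 samples. Each Ltbr-/- sample was above each Ly5.1 sample. The means were 744 ± 44.9 and 646 ± 36.3 (SD, n = 3 each), a difference of 0.20 ± 0.09 (SE, limma adjusted p = 0.138, exact permutation p = 0.1).

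*Fancm*, the translocase that anchors the core complex to DNA, pointed the other way without passing. Its signal of 429.7, 415 and 428 in Ltbr-/- did not overlap 469, 511 and 467 in Ly5.1 samples, and the difference was −0.18 (limma adjusted p = 0.188). The log2 ratio of *Fance* to *Fancm*, a pair chosen after the values had been seen, was 0.81 ± 0.11 against 0.42 ± 0.13 (SD, n = 3 each). Since both genes were without overlap in opposite directions, their ratio could not overlap either. Its exact permutation p of 0.1 (0.333 over the 10 ratios) thus adds nothing to the single genes. *Fancd2* and *Fanci*, which form the clamp that the core complex ubiquitinates, differed by −0.13 (0.459) and −0.02 (0.906). *Fancd2* varied widely within a group, with 655, 494 and 731 in the Ltbr-/- samples. The core members *Fanca* (0.03), *Fancb* (−0.06), *Fancc* (0.01), *Fancf* (0.07), *Fancg* (−0.08) and the ubiquitin ligase *Fancl* (0.08) were all within 0.1 of no difference.

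End joining genes gave 1 value above 0 and 4 below, with a median of −0.04. Limma called 0 of the 5, and 1 at an unadjusted p under 0.05. *Prkdc*, the DNA-PK catalytic subunit that the Ku ring brings to broken ends, had a signal of 1274, 1255 and 1329 in Ltbr-/- and of 1413, 1507 and 1446 in Ly5.1 samples. Samples within each group were close, and the groups did not overlap. The means were 1286 ± 38.4 and 1455 ± 47.6 (SD, n = 3 each), a difference of −0.18 ± 0.08 (SE, limma adjusted p = 0.161, exact permutation p = 0.1). Over the alternative fits the difference ran from −0.21 to −0.06, and *Prkdc* passed in 0 of 17.

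No difference was detected in the Ku subunits. *Xrcc6* (Ku70) and *Xrcc5* (Ku80) differed by −0.05 (limma adjusted p = 0.765) and −0.04 (0.808). The log2 ratio of *Xrcc6* to *Xrcc5* was 1.32 ± 0.06 in Ltbr-/- and 1.33 ± 0.22 in Ly5.1 samples (exact permutation p = 1), although the Ly5.1 samples were spread widely. *Lig4*, the ligase that seals the joint, had nearly the same signal in all samples, 55.6, 54.8 and 52.2 against 52.9, 56.1 and 54.6, and its cofactor *Xrcc4* differed by 0.02 (adjusted p = 0.930). Per kb of longest coding transcript, *Lig4* had the lowest level of the members, 10.8 ± 0.313 in Ly5.1 samples (SD, n = 3), and such low signals are those most drawn together by the authors' scaling.

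Base excision and single-strand break repair had members on both sides of 0, 3 above and 2 below, with a median of 0.00. Beside the lower *Parp1*, the scaffold *Xrcc1*, which PARP1 recruits to nicks, had a signal of 1862, 1985 and 1994 in Ltbr-/- and of 1709.6, 1491 and 1912 in Ly5.1 samples. One Ly5.1 sample lay above the lowest Ltbr-/- sample. The difference was 0.20 ± 0.09 (SE, limma adjusted p = 0.134), and without that sample, Ly5.1 replicate 3, it was 0.29 with an adjusted p of 0.0242.

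The log2 ratio of *Xrcc1* to *Parp1* was −1.29 ± 0.03 in Ltbr-/- and −1.71 ± 0.14 in Ly5.1 samples (SD, n = 3 each). That difference of 0.42 was the widest of the 10 ratios and showed no overlap (exact permutation p = 0.1, and 0.333 over the 10). The pair was chosen after the values had been seen. Its 0.42 is the difference of *Xrcc1* less that of *Parp1*, so it is no result apart from those of the single genes. *Lig3*, the ligase that XRCC1 carries, differed by −0.10 (adjusted p = 0.529). The glycosylase *Ogg1*, which removes oxidised guanine, differed by 0.00 (adjusted p = 0.995). The endonuclease *Apex1*, which cuts the strand after a glycosylase, had 2026, 2033 and 2089.8 in Ltbr-/- and 2022, 1729 and 1897 in Ly5.1 samples, a difference of 0.13 without overlap that did not pass (adjusted p = 0.342). Of its 76-base pieces, 62.6% lay opposite the antisense gene *Pip4p1*, and those of *Lig3* opposite *Rffl* at 29.8%. The library kit kept the strand, but the strand setting of the authors' counting is not given in the sources used here, so reads from both strands cannot be told apart for these genes.

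Nucleotide excision repair was covered by 3 members, with a median of −0.05 and 0 calls by limma, also at an unadjusted p under 0.05. *Xpc*, the sensor of distorted helices, had a signal of 1058, 993 and 1124 in Ltbr-/- and of 1043, 1171 and 1258 in Ly5.1 samples. These overlapped, and the difference was −0.13 (limma adjusted p = 0.390). *Xpa*, which checks the lesion, differed by −0.05 (0.781), and *Ercc1*, partner of the nuclease XPF, by 0.08 (0.646).

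**Figure D3:**
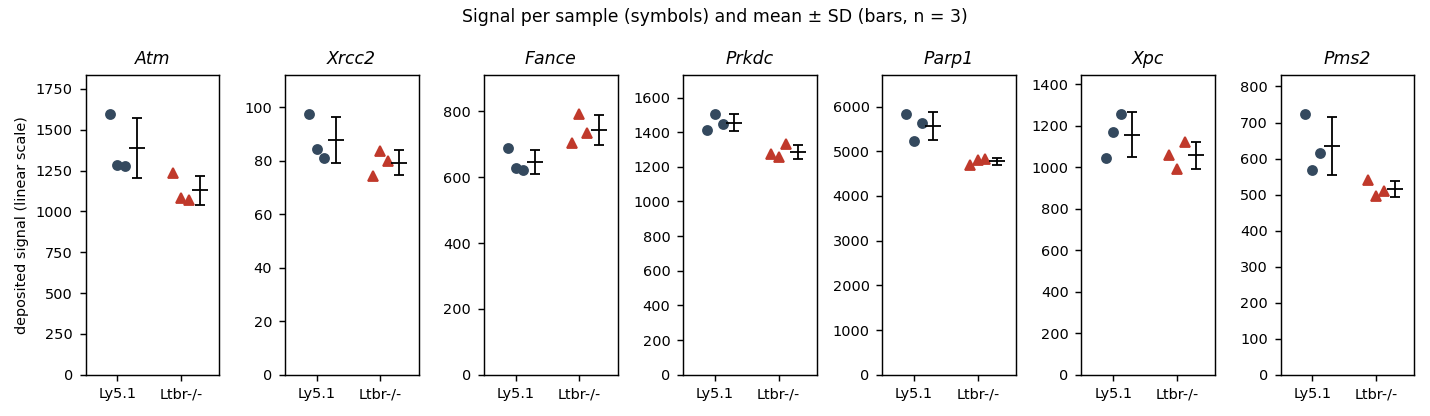
Deposited signal (y axis, linear scale from 0) of the member with the largest difference in each of the 7 repair functions, in Ly5.1 (circles) and Ltbr-/- (triangles) samples, with mean ± SD bars (n = 3). Only for Atm, Parp1 and Pms2 was the adjusted p under 0.05. The groups overlap for Xrcc2 and Xpc.

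Levels can be set between genes only per length, here as signal per kb of the longest coding transcript, which assumes that this transcript is the one made. On that scale *Apex1* led in the Ly5.1 samples with 1519 ± 119, followed by *Parp1* with 1437 ± 80.3, *Msh6* with 779 ± 49.2 and *Xrcc1* with 674 ± 83.3 (SD, n = 3 each). *Apex1* and *Parp1* did not differ beyond their spread in Ly5.1 samples. In Ltbr-/- samples they stood at 1654 ± 28.3 and 1232 ± 18.8, further apart than their SDs. With 62.6% of its pieces opposite *Pip4p1* and the strand setting unknown, the level of *Apex1* could include reads of that gene. At the low end stood *Fancf* with 41.2 ± 2.28, *Xrcc2* with 27.0 ± 2.69 and *Lig4*. Genes of 1 function were spread over the order, with the base excision genes *Apex1*, *Parp1* and *Xrcc1* at ranks 1, 2 and 4 of 38 but *Ogg1* and *Lig3* at 15 and 21.

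A property that the choice of genes had not used was transcript length. Among the 38 members, the log2 fold change and the log2 length of the longest coding transcript had a Pearson correlation of −0.43 (Spearman −0.39, across genes of the same libraries, which are not independent replicates), and among all 11886 tested names with such a transcript it was −0.40 (Spearman −0.41). The 7 members with transcripts of 6000 bases or more had a median of −0.18, with 6 of 7 below 0, and the 1580 such names had a median of −0.09. The 6 members under 2000 bases had a median of 0.04, with 1 of 6 below 0, and the 3044 such names a median of 0.08. In between, the 16 members of 2000 to 4000 bases had a median of −0.05 and the 9 of 4000 to 6000 bases one of −0.02, while the names of these lengths had medians of −0.02 and −0.07. The medians of all names thus fell from each length class to the next, and those of the members did not.

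*Atm*, with 9819 bases, *Prkdc*, with 12647, and *Pms2*, with 5482, were among the long transcripts, and *Parp1* had 3873. After a loess correction of each sample for length and GC content, the differences were −0.18 for *Atm* (limma adjusted p = 0.173), −0.22 for *Pms2* (0.115) and −0.18 for *Parp1* (0.0418). The median of the damage sensors and kinases then was −0.10. For *Prkdc* the difference was −0.06 after the loess correction, the value closest to 0 of all alternatives. It ran from −0.21 to −0.06 over all of them, and from −0.20 to −0.15 on leaving out samples. The correlation with GC content was 0.43 over the members and 0.15 over all names. The part of length, GC content or RNA quality in the differences was not tested beyond these values.

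**Figure D4:**
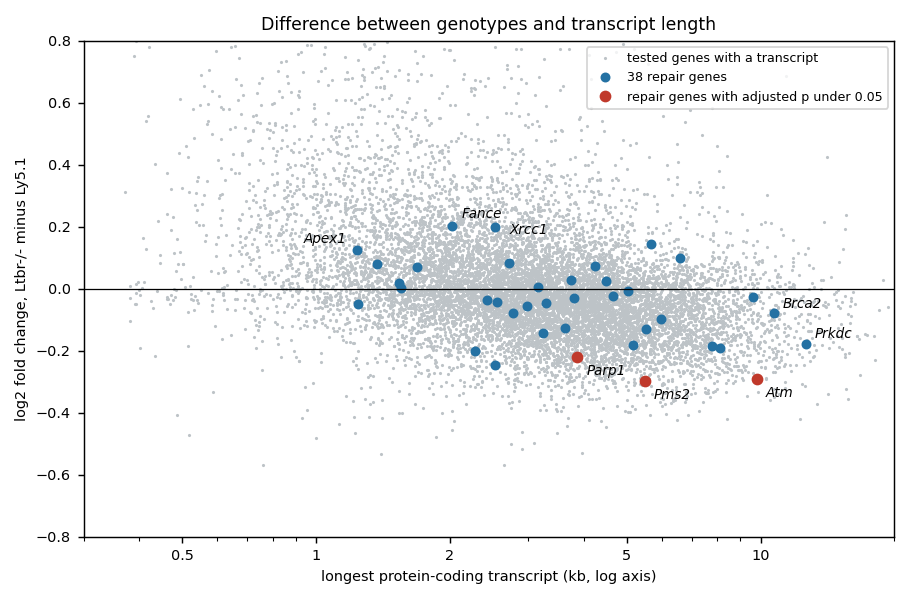
Log2 fold change of Ltbr-/- against Ly5.1 (y axis) by length of the longest protein-coding transcript (x axis, kb, log scale) for the 38 repair genes (blue, and red for an adjusted p under 0.05) and the other tested genes (grey). Of 11886 genes, 117 lie beyond the y axis and 13 beyond the x axis; the members lie within the grey cloud.

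The rest of the repair machinery was read from a list of 122 further genes, of which 121 were tested. Limma called 12 (9.92%), 7 higher and 5 lower in Ltbr-/-, against 14.8% of all names, and the median was −0.02. With a fold of at least 1.5 there was 1, *Shfm1*, which encodes a small acidic protein that binds BRCA2 and is also a proteasome subunit. Its signal was 3053, 3214 and 3345 in Ltbr-/- and 2006, 2199 and 2026 in Ly5.1 samples. The groups were far apart, with a log2 fold change of 0.63 ± 0.08 (SE, limma adjusted p = 9.78e-08).

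The other 11 calls are named here because they passed, after their values were seen. The higher ones were *Babam1* (0.54), a scaffold of the BRCA1-A complex, *Mad2l2* (0.48), which limits the trimming of break ends, *Ube2t* (0.44), the ubiquitin-conjugating enzyme of the Fanconi pathway, the repair polymerase *Poll* (0.36) and the TFIIH subunits *Gtf2h4* (0.27) and *Gtf2h5* (0.32). The lower ones were *Clspn* (−0.26), the adaptor through which ATR activates CHK1, *Usp1* (−0.29), which removes ubiquitin from FANCD2, the catalytic subunit of polymerase zeta *Rev3l* (−0.32), *Ercc6* (−0.42), which acts where transcription stalls, and *Rad23b* (−0.30), a partner of XPC. The 7 higher genes had transcripts of 1116 to 2324 bases and the 5 lower ones of 3577 to 10713 bases.

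By function, each list held 0 to 4 calls. Among the 24 other checkpoint genes 2 were higher and 1 lower, among the 30 other recombination genes 1 was higher, among the 14 other Fanconi genes 1 was higher and 2 were lower, among the 9 other end joining genes 1 was higher, and among the 20 other nucleotide excision genes 2 were higher and 2 lower. The shares called were 12.5% of the checkpoint, 21.4% of the Fanconi and 20.0% of the nucleotide excision genes, beside 14.8% of all names. At an unadjusted limma p under 0.05 there were 12 of 24 checkpoint, 6 of 30 recombination, 4 of 14 Fanconi, 1 of 9 end joining and 9 of 20 nucleotide excision genes, beside 27.1% of all names. Of 19 tested other base excision genes and of 5 other mismatch repair genes limma called 0, against 3 and 1 at an unadjusted p under 0.05.

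Genes that respond to damage or mark dividing cells gave the setting, with no member among them. Of 25 targets of p53, the transcription factor that ATM and CHK2 stabilise after breaks, 22 were tested, 7 were higher and 1, the kinase *Plk2* (−0.29), was lower, with a median of 0.15. These 8 are 36.4% of the tested targets, beside 14.8% of all names. *Cdkn1a*, which encodes the cell cycle inhibitor p21, stood at 0.91, the apoptosis effector *Bax* at 0.93 and *Dcxr* at 0.98. These 3 were past a fold of 1.5, and were named after their values were seen. Of 43 S phase genes 3 were lower and 0 higher in limma, with a median of −0.10, and 13 of the 43 also belong to the repair lists. The 3 are 6.98% of the S phase genes, fewer than the 14.8% of all names. At an unadjusted p under 0.05 limma had 8 lower and 0 higher, beside 27.1% of all names in either direction. Of 54 G2/M genes 8 were higher and 3 lower (20.4% called), with a median of −0.01. Transcript length moved with these calls too, since the 7 higher p53 targets had 892 to 2692 bases and the 8 higher G2/M genes 1466 to 2692, while the 3 lower S phase genes had 3577 to 5346. Its part in them was not tested.

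**Figure D5:**
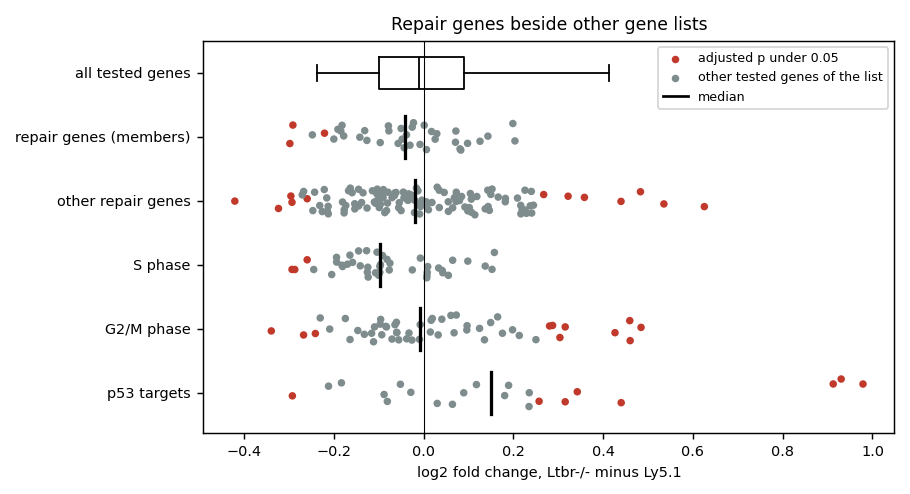
Log2 fold change of Ltbr-/- against Ly5.1 (x axis) for the 38 repair genes and 4 other lists, with 1 point per tested gene, red for an adjusted p under 0.05 and a black line at the median. The box of all tested genes spans the quartiles, with whiskers from the 5th to the 95th percentile. The members run from −0.30 to 0.20 and the p53 targets from −0.29 to 0.98.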

How the data were processed

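RNA of the 6 samples had been sequenced from stranded mRNA libraries made from 20 ng of total RNA, as single reads of 76 bases. The authors used SeqMan NGen for assembly and ArrayStar for quantification (version 16 of both), and deposited for each gene a signal that is never negative. The submitters' processing notes name DESeq2, GRCm38 and mm10. From the values, the signal was read as 2 to the power of a regularized log, which holds size factors and shrinkage. The files give no counts, so depth is unknown and precision rests on the spread between 3 samples.

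The log2 of the signal was fitted across the names in the upper 50% by mean with limma 3.58.1 (lmFit and eBayes with a trend, R 4.3.3), with genotype as the only term. For single values an exact permutation test, two-sided, was run (scipy 1.17.1). Repeated names kept their entry of highest mean, and no member was affected. The thresholds were an adjusted p under 0.05 and, as a further limit, a fold of 1.5. Per-sample values were given for members past the threshold and for the member with the largest difference in each function, and for others named after their values were seen. Members and lists were chosen with earlier results of these data known. On simulated data with the 13108 names, the fit for this comparison recovered 56% of genes changed by 0.25 on the log2 scale and 100% of those changed by 0.5 or 1, and 2.20% of its calls were unchanged genes. The simulated noise was independent and followed the fitted variance trend, and 200 genes were changed. It held no length trend and no outlying sample, so these rates need not hold for the real samples. Sequences and positions came from RefSeq (GRCm38.p6) and transcripts from GENCODE M21. Alternatives were other filters, scalings and variance models, a pseudocount of 10, a loess correction, the replicate number as a block and leaving out each sample.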

Additional observations from a re-analysis of the deposited data

How the results depend on the processing

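The count of 3 lower members was 1 without a filter on low values or with the loess correction for length and GC, and 0 without a variance trend or without moderation. It was 0 to 5 when each sample was left out, 0 without Ltbr-/- replicate 2 or 3, 1 without Ly5.1 replicate 1 (*Nbn*) and 5 without Ly5.1 replicate 3. The count of higher members was 0 to 1 on leaving out samples (*Xrcc1*, without Ly5.1 replicate 3), and 0 under the other alternatives, and no alternative gave a member with a fold of at least 1.5. *Atm* and *Pms2* passed in 10 of 17 alternatives each, *Parp1* in 11 and *Nbn* in 4. Adjusted p over the alternatives ran from 0.0116 to 0.288 for *Atm*, from 5.72e-05 to 0.146 for *Parp1* and from 0.0144 to 0.237 for *Pms2*. Over all names the split of 1388 higher and 548 lower became 1246 and 914 with quantile normalization and 1191 and 831 when centred on the 75th percentile. The causes of these shifts were not tested.

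Among the other repair genes, the 7 higher were 2 without moderation, 11 with loess and 3 to 10 on leaving out samples, and the 5 lower were 9 in the upper 25% of names or centred on the 75th percentile, 10 with quantile normalization, 1 without moderation and 2 to 7 on leaving out samples. The members' median was −0.067 centred on the 75th percentile and −0.050 to −0.029 on leaving out samples. The median of the sensors and kinases was −0.10 with loess and −0.24 to −0.11 on leaving out samples, and that of homologous recombination 0.029 in the upper 25%, 0.036 with loess and −0.079 to 0.0024 on leaving out samples. That of nucleotide excision repair was −0.12 to 0.020 and of end joining −0.055 to 0.0092 on leaving out samples.

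Of 410 values of single members under 11 alternatives, 17 turned sign, none of them called. With loess *Chek1* was 0.021, *Trp53bp1* 0.083, *Brca2* 0.036, *Fanci* 0.043, *Lig4* 0.066, *Fancf* −0.020, *Xrcc4* −0.036, *Ogg1* −0.10, *Apex1* −0.010 and *Ercc1* −0.049. Centred on the 75th percentile *Fanca* was −0.00014, *Fancc* −0.019, *Xrcc4* −0.0081 and *Ogg1* −0.024, and with quantile normalization *Fanca* was −0.010, *Ogg1* −0.00040 and *Msh6* −0.017. Leaving out samples turned *Chek1* (−0.10 to 0.015), *Trp53bp1* (−0.061 to 0.017), *Palb2* (−0.063 to 0.099), *Xrcc3* (−0.11 to 0.038), *Fanca* (−0.034 to 0.097), *Fancb* (−0.12 to 0.015), *Fancc* (−0.10 to 0.092), *Fancd2* (−0.25 to 0.031), *Fancg* (−0.14 to 0.0074), *Xrcc4* (−0.037 to 0.075), *Xrcc5* (−0.096 to 0.0092), *Xrcc6* (−0.10 to 0.011), *Lig4* (−0.029 to 0.019), *Ogg1* (−0.046 to 0.057) and *Xpa* (−0.12 to 0.020).

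With the replicate number as a block, 3 members were again lower and 0 higher. Samples with the same number had correlations of their deviations of 0.03, −0.01 and 0.09, not over 0.1, and not every sample went best with its own number. The numbers were therefore not used as pairs in the main fit, though so few samples cannot exclude a pairing. The labels do not say which chimeras went into which sample, and p-values measure only the spread between samples.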
